A study of Homo sapiens with 18 samples.

Results

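The ERBB receptors and their ligands were followed in ZR751, an estrogen receptor positive (ER+) luminal breast cancer cell line, with and without knockdown of MLL3. The group was set by gene symbol and not by a rule on measured values, though earlier results of these data were known when it was chosen. It holds 10 genes out of the 23500 rows of the FPKM table. It consists of the 4 receptors EGFR, ERBB2, ERBB3 and ERBB4, and of the 6 ligand genes AREG, EREG, TGFA, HBEGF, NRG1 and BTC. FPKM (sequenced fragments scaled by transcript length and library size) is corrected for length, so levels can be compared between genes. MLL3, listed under its current symbol KMT2C, is a methyltransferase that places a single methyl group on lysine 4 of histone H3 (H3K4me1), a mark of enhancers.

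The knockdown line, ZR751shMLL3, expresses a hairpin RNA directed at MLL3 from an integrated lentivirus. Its control, ZR751shLucif, expresses one directed at luciferase, a gene that human cells lack. Both lines were sorted for the green fluorescent protein of the vector and were grown in medium with serum and insulin, without further treatment. A single hairpin sequence was used against MLL3, so each cell line represents 1 transduced population. For each line there were 2 RNA-seq libraries, 2 H3K4me1 ChIP-seq libraries and 2 libraries for estrogen receptor alpha (ERα, encoded by ESR1). The study describes the 2 libraries of each kind as biological replicates, those for ChIP-seq from 1 experimental repetition. How the replicate cultures were separated is not given in the sources used here, so p-values measure the spread between these libraries. Receptor activity, phosphorylation and secreted ligand were not measured here.

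ERBB receptors are receptor tyrosine kinases that signal as pairs. AREG, EREG, TGFA, HBEGF and BTC code for membrane-anchored growth factors that bind EGFR once released by ADAM proteases, and some of them also bind ERBB4. NRG1 codes for neuregulins, which bind ERBB3 and ERBB4. ERBB2 has no known soluble ligand and is the preferred partner of the other receptors, and ERBB3 has a weak kinase and passes signals on through PI3K. In luminal breast cells ERα binds enhancers through estrogen response elements, a palindrome of the arms GGTCA and TGACC with 3 free bases between them, and AREG and TGFA are long known as estrogen-responsive genes.

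The sequences below are the ERα sites on which the binding results turn. The first and the next are the sites near members that were bound in both ZR751shMLL3 libraries, shown as 201 bases centred on the summit, from the GRCh37 genome (hg19, the build of the peak files), plus strand. The capitals mark the complete element in the TGFA window and the closest match to it in the ERBB4 window, which differs by T3G, counted from 1 at the first base of the element. The last is a short stretch around the only other complete element under a top-ranked ERα peak near a member, in the untranslated part of the last exon of RAB5B in the ERBB3 window.
ERBB4 site, chr2:212287902-212288102: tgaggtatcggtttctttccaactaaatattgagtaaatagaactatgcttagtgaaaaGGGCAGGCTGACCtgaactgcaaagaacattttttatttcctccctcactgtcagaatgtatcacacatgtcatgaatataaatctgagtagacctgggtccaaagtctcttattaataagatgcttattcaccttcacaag
TGFA site, chr2:70843435-70843635: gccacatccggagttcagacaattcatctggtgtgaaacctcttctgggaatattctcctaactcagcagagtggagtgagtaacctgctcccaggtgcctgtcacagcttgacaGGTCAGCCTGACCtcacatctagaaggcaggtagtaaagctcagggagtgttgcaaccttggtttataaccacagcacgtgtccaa
ERBB3 window, chr12:56387778-56387802: aggaaaGGTCACAGTGACCtaggat

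The 10 genes lie on 7 chromosomes. In GRCh37 the receptors are at chr7:55086710-55279321 (EGFR), chr17:37844167-37886679 (ERBB2), chr12:56470583-56497289 (ERBB3) and chr2:212240442-213403565 (ERBB4). The ligand genes AREG (chr4:75310853-75320722), EREG (chr4:75230862-75254466) and BTC (chr4:75669969-75719733) share chromosome 4. TGFA is at chr2:70674416-70781325, HBEGF at chr5:139712428-139726188 and NRG1 at chr8:31496738-32713184. ERBB4 and NRG1 are very long genes of 1163 kb and 1216 kb, while AREG spans 9.87 kb. The windows of 100 kb on each side held from 0 other protein-coding genes (EGFR, ERBB4 and BTC) to 13 (ERBB3), so a peak in the ERBB3 window cannot be assigned to ERBB3 alone.

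The libraries were checked before the members were read. MLL3 itself was at 2.34 and 6.77 FPKM in the libraries labelled ZR751shLucif replicates 1 and 2, and at 1.07 and 2.69 FPKM in ZR751shMLL3. The KMT2C groups therefore overlapped, with the library labelled ZR751shLucif replicate 1 below ZR751shMLL3 replicate 2. The difference did not pass the test (log2 fold change -1.02, SE 0.54, limma adjusted p = 0.629). The study itself checked the knockdown by qPCR with biological replicates shortly after transduction, and reports a significant difference in MLL3 RNA. The RNA-seq values given here do not replace that check. The library labelled ZR751shLucif replicate 1 stood apart: across genes its log2 values had Pearson correlations of 0.9 to 0.907 with the other libraries, which had 0.947 to 0.969 among themselves. All 9 luminal markers passed the expression filter in these cells, with KRT8 at 1650 to 4570 FPKM, while the summed leukocyte markers were at 0.02 to 0.0798 FPKM and the summed endothelial markers at 0.135 to 0.282 FPKM. Of the basal markers KRT5 was at 0 to 0.0394 FPKM, and of the mesenchymal markers VIM was at 0 to 0.372 FPKM. ESR1, the gene of the immunoprecipitated receptor, was at 11.2 and 14.2 FPKM in the ZR751shLucif libraries and at 12.1 and 10.8 FPKM in ZR751shMLL3.

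Receptor RNA in ZR751 was dominated by ERBB2 and ERBB3. ERBB2 was at 114 and 59.5 FPKM in the ZR751shLucif libraries (replicate 1 first, here and throughout), and at 89 and 145 FPKM in the ZR751shMLL3 libraries. Each cell line thus had a high and a lower library, and the groups overlapped (mean 86.8 ± 38.6 FPKM against 117 ± 39.5 FPKM, SD, n = 2 each). ERBB3 was at 54.9 and 54.3 FPKM in the ZR751shLucif libraries, and at 44.6 and 61.7 FPKM in ZR751shMLL3. Both control values lay between the 2 knockdown values.

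The other receptors were far lower. EGFR, the receptor of most of the ligands, was at 1.27 and 2.19 FPKM in the ZR751shLucif libraries and at 2.41 and 2.47 FPKM in ZR751shMLL3. Both knockdown libraries were above both control libraries for EGFR, but only by a small margin over ZR751shLucif replicate 2. ERBB4, which like ERBB3 binds neuregulins, was at 1.18 and 2.41 FPKM in the ZR751shLucif libraries and at 0.824 and 1.56 FPKM in ZR751shMLL3, with overlapping groups.

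TGFA was the most abundant ligand among the 6. Its level was 5.07 and 6.3 FPKM in ZR751shLucif and 5.37 and 7.86 FPKM in ZR751shMLL3. The higher control library lay between the 2 knockdown libraries. NRG1 was at 0.426 and 0.504 FPKM in the ZR751shLucif libraries and at 1.62 and 2.38 FPKM in ZR751shMLL3. Here the groups did not overlap, and the lower knockdown library was more than 3 times the higher control library.

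The remaining ligands were low and differed as much within as between the cell lines. AREG was at 0.398 and 2.98 FPKM in the ZR751shLucif libraries and at 1.55 and 0.673 FPKM in ZR751shMLL3, so that the controls were both the lowest and the highest library. The AREG value is uncertain, since hg19 carries a near-identical copy of the gene and the table has 2 rows for it, of which the other is listed at 0 in all 4 libraries. HBEGF, the heparin-binding ligand, was at 0.55 and 1.52 FPKM in the ZR751shLucif libraries and at 1.87 and 0.852 FPKM in ZR751shMLL3. BTC was at 0.0997 and 1.03 FPKM in the ZR751shLucif libraries and at 0.796 and 0.454 FPKM in ZR751shMLL3. EREG, the neighbour of AREG on chromosome 4, was at 0.177 and 0.761 FPKM in the ZR751shLucif libraries and at 0.183 and 0.0412 FPKM in ZR751shMLL3. For AREG, HBEGF, BTC and EREG alike, ZR751shLucif replicate 2 was higher than ZR751shLucif replicate 1, and the groups overlapped.

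Ordered by level, the genes fell into 3 tiers. ERBB2 and ERBB3 overlapped each other across the 4 libraries and stood at or above 91.5% of all rows of the table in every library. TGFA came next, above every value of the remaining 7 genes and below every value of ERBB2 and ERBB3. EGFR, ERBB4, AREG, HBEGF and NRG1 had ranges that all overlapped, from 0.398 to 2.98 FPKM, and BTC and EREG, the lowest, overlapped with each other and with part of that tier.

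**Figure D1:**
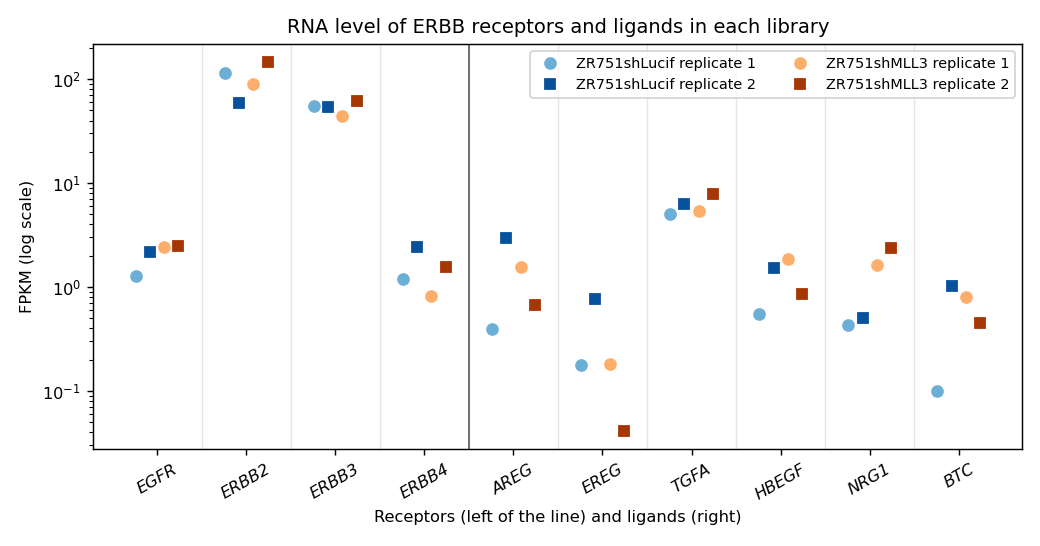
RNA level (FPKM, log scale) of the 4 receptors and 6 ligand genes; each point is 1 of the 4 RNA-seq libraries, coloured by cell line and replicate. ERBB2 and ERBB3 sit highest, TGFA follows, and NRG1 and EGFR are the genes whose ZR751shMLL3 points both lie above the ZR751shLucif points.

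The question put to the fold changes was whether knockdown of MLL3 altered any of these RNAs. Of the 10 genes, 4 passed the filter on low values (mean log2(FPKM + 0.5) above 1) and none of them passed the test, in a comparison in which limma called 0.00898% of the 11134 genes tested (1 gene, the small nucleolar RNA SNORD104, named after its value was seen). None of the 4 had an unadjusted p under 0.05 either, which 7.98% of all genes had. The study removed surrogate variables from its RNA-seq data before its own fit and reports far more changed genes at a q-value under 0.05. The fit used here did not remove them. On the log2(FPKM + 0.5) scale the log2 fold change was 0.46 for ERBB2 (SE 0.42, limma adjusted p = 0.729) and 0.43 for EGFR (SE 0.31, limma adjusted p = 0.679). It was 0.19 for TGFA (SE 0.31, limma adjusted p = 0.844) and -0.06 for ERBB3 (SE 0.29, limma adjusted p = 0.959). The median over all genes tested was -0.10, so these estimates are relative to a slightly negative centre.

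Single libraries decided the size of several of these estimates. A fit without a library leaves 1 library in its cell line, which is then assumed to vary like the other line, and such fits called from 4 to 1333 genes. Without the library labelled ZR751shLucif replicate 1, which stood apart, the log2 fold change of ERBB2 was 0.925, that of EGFR was 0.13 and that of TGFA was 0.04. Without ZR751shLucif replicate 2, ERBB2 was at -0.008, EGFR at 0.73 and TGFA at 0.33. For ERBB3 the estimate ranged from -0.29 to 0.17 as each library was left out in turn. No member passed the adjusted threshold in any of these fits, and the lowest adjusted p was 0.0823, for EGFR without ZR751shLucif replicate 2.

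The 6 genes below the filter, ERBB4 with a mean log2 of 0.94 just under it, were not tested in the main comparison. For NRG1 the difference of mean log2(FPKM + 0.5) was 1.36, and it ran from 1.14 to 1.58 as each library was left out in turn, with 1.30 without the library labelled ZR751shLucif replicate 1. When every row with a value was tested, NRG1 had an unadjusted limma p of 0.00404 and an adjusted p of 0.436. In all, NRG1 and EGFR were the 2 of 10 genes with both ZR751shMLL3 libraries above both controls, and none had both below. Over all 18215 rows with a value, 16.6% were higher without overlap and 22.5% were lower, so the count of 2 higher is near that background.

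The rest of the pathway was read from lists of ligands, release factors, adaptors and inhibitors of ERBB signalling. None of their genes passed the adjusted threshold in either direction. Among all genes tested, 17.6% had both ZR751shMLL3 libraries higher and 25.3% had both lower than both controls, and these shares are the background for the counts that follow. Of the 5 other ligands, EGF alone passed the filter, at 7.42 and 6.44 FPKM in ZR751shLucif and 4.43 and 7.3 FPKM in ZR751shMLL3. EGF was thus the ligand RNA closest to TGFA in level, again with overlapping groups. EPGN, the gene next to EREG, was at 0.42 and 0.5 FPKM in ZR751shLucif and 0.178 and 0.102 FPKM in ZR751shMLL3.

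Of the genes that act in the release of ligands, 8 of 9 were tested, 0 were called and 3 were higher without overlap. The estimates with the largest size were 0.40 for RHBDF1 and 0.33 for RHBDF2, which code for the iRhom proteins that escort ADAM17, and -0.29 for ADAM9 and -0.08 for NRDC, a protease that enhances shedding. ADAM17, the main sheddase of TGFA and AREG, was at 3.96 and 5.72 FPKM in the ZR751shLucif libraries and at 4.41 and 6.05 FPKM in ZR751shMLL3. The median log2 fold change of the 8 genes was 0.19.

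Of the 13 adaptors, all were tested and 0 were called, with 4 lower and 1 higher without overlap. PIK3R1, the regulatory subunit of PI3K, was at 16.8 and 10.2 FPKM in the ZR751shLucif libraries and at 4.17 and 6.01 FPKM in ZR751shMLL3. All of its knockdown values lay below its control values, yet the adjusted test was not passed (log2 fold change -1.30, SE 0.35, limma adjusted p = 0.495). NCK1, an adaptor to the actin cytoskeleton, was at -0.63, and at the other end stood GRB7 at 0.33 and CRKL at 0.27. The median of the adaptors was -0.06.

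Inhibitors of ERBB signalling gave the most genes with lower values in both knockdown libraries, 7 of the 15 tested out of 19, against the 25.3% of all genes. The lists were chosen with earlier results of these data known, so this count is descriptive and no independent support for a lower group. None was called. DUSP4, a phosphatase that inactivates MAP kinases, was at 60.1 and 45 FPKM in the ZR751shLucif libraries and at 23.7 and 15.1 FPKM in ZR751shMLL3 (log2 fold change -1.44, SE 0.34, limma adjusted p = 0.453). SPRY1, a Sprouty inhibitor of receptor tyrosine kinase signalling, was at 3.78 and 5.49 FPKM in the ZR751shLucif libraries and at 2.32 and 2.55 FPKM in ZR751shMLL3 (log2 fold change -0.79, limma adjusted p = 0.605). LRIG1, which promotes degradation of ERBB receptors, was at 22.3 and 26.3 FPKM in the ZR751shLucif libraries and at 14.8 and 15.3 FPKM in ZR751shMLL3, again with no overlap. DUSP6 failed the filter, with 2.7 and 2.76 FPKM in ZR751shLucif and 1.18 and 0.276 FPKM in ZR751shMLL3. The estimates above 0 with the largest size in this list were 0.47 for CBL and 0.22 for CBLC, ubiquitin ligases of activated receptors. The list's median was -0.19 beside -0.10 for all genes. The summed mesenchymal markers were at 13.1 to 18.3 FPKM in the 4 libraries, nearly all of it COL1A1, and the summed basal markers at 1.77 to 4.05 FPKM. The summed luminal markers ranged from 4950 FPKM in ZR751shLucif replicate 2 to 12600 FPKM in ZR751shLucif replicate 1, and the part of this spread in the values of the inhibitors was not tested.

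The neighbours of ERBB2 on chromosome 17 were read because the region is often amplified as a block. Of 10 listed genes 6 were tested and 0 were called. STARD3 was at 11.7 and 12.6 FPKM in the ZR751shLucif libraries and at 15.5 and 16.6 FPKM in ZR751shMLL3, with a log2 fold change of 0.39, and GRB7, which is also on the list of adaptors, was at 0.33. MIEN1 was at -0.37 and MED1 at -0.01. ERBB2 was higher in ZR751shLucif replicate 1 than in replicate 2, and so were MIEN1 (160 and 126 FPKM), PGAP3 (12.9 and 9.97 FPKM) and GRB7 (13.3 and 11.2 FPKM). STARD3, CDK12 (5.33 and 8.02 FPKM) and MED1 (7.16 and 8.55 FPKM) were lower in replicate 1.

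**Figure D2:**
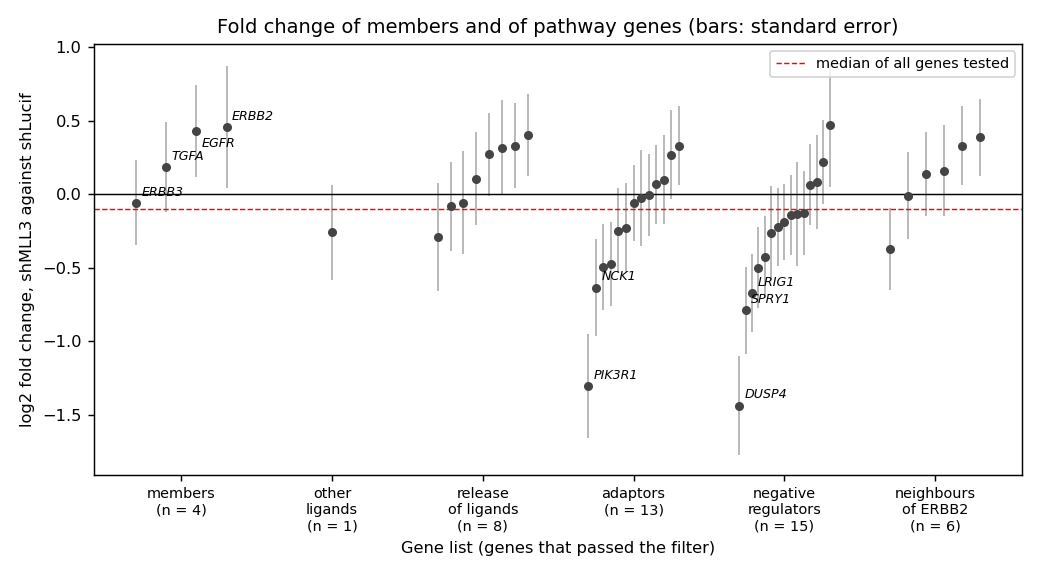
Log2 fold change (ZR751shMLL3 against ZR751shLucif, on log2(FPKM + 0.5)) of the genes that passed the filter in each list, with standard errors from limma; the dashed line is the median of all genes tested. The 4 tested members lie between -0.06 and 0.46, and the lowest points are DUSP4 and PIK3R1, none of them past the adjusted threshold.

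H3K4me1 was compared to see whether the genes held a different share of the strongest marked sites after knockdown of the methyltransferase. The peak lists were called per library and limited by rank, with signal scales of their own, so the 50000 top-ranked peaks of each library were used, and a peak was counted when its summit lay in a gene or within 100 kb of it. An equal number from every library fixes the total, so a general loss or gain of marked sites cannot appear in these counts. Counted once over all windows the control libraries held 166 and 185 peaks, and the ZR751shMLL3 libraries held 150 and 168. The means were 175.5 ± 13.4 and 159 ± 12.7 (SD, n = 2 each), a difference of -16.5 peaks with overlapping groups. An exact two-sided permutation test gave p = 0.667, where 0.333 is the smallest p that 2 against 2 libraries allow. The groups did not overlap among the 20000 top-ranked peaks (84 and 97 against 71 and 70) or at the authors' false discovery rate of 0.01 (435 and 628 against 97 and 338), and the exact permutation p was 0.333 in both. At that rate the whole lists held 141158 and 192201 peaks in ZR751shLucif and 28599 and 109586 in ZR751shMLL3. The lower counts near the members thus went with shorter lists. ERBB4 alone held most of the peaks. Without its window the 50000 top-ranked peaks gave 64 and 67 in ZR751shLucif and 73 and 70 in ZR751shMLL3. The direction of that total thus turned (exact permutation p = 0.333), and this alternative was not run at the authors' false discovery rate.

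Among the 50000 top-ranked peaks the windows went different ways. ERBB4 had 102 and 118 peaks in ZR751shLucif and 77 and 98 in ZR751shMLL3, nearly all inside the gene (96 and 114 against 75 and 91). AREG had 17 and 19 against 11 and 13, and EREG 12 and 18 against 10 and 10. In these 3 windows both ZR751shMLL3 libraries had fewer peaks than both controls, which held for 13.6% of the 19299 genes with a peak in any library. The AREG and EREG windows share peaks and are not independent: counted as 1 region of 290 kb they held 19 and 21 peaks in ZR751shLucif and 13 and 14 in ZR751shMLL3.

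TGFA and NRG1 went the other way. TGFA had 2 and 2 peaks in ZR751shLucif and 7 and 4 in ZR751shMLL3, and NRG1 had 23 and 24 against 27 and 36. Among the 50000 top-ranked peaks both knockdown libraries exceeded both controls at these 2 genes, as they did at 15.1% of all genes. Within the body of TGFA there were 0 peaks in either control and 2 and 3 in ZR751shMLL3, and within NRG1 there were 21 and 23 against 26 and 32. NRG1 was thus higher without overlap in both RNA and top-ranked H3K4me1 peaks, whereas EGFR was so in RNA alone. At the authors' false discovery rate, where the total per library is not fixed, NRG1 did not keep this direction. It held 50 and 79 peaks in ZR751shLucif and 18 and 59 in ZR751shMLL3, with overlapping groups. TGFA held 20 and 27 against 4 and 11 there, lower without overlap. So were the windows of ERBB2 (23 and 43 against 4 and 14), ERBB3, ERBB4, AREG, EREG, HBEGF and BTC. EGFR overlapped, with 8 and 6 against 1 and 8. The ZR751shMLL3 lists were also shorter at that limit, and the share over all genes was not computed there, so the TGFA count is not particular to TGFA.

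The other 5 windows overlapped between the groups in the top-ranked counts. EGFR had 4 and 0 peaks in ZR751shLucif and 3 and 5 in ZR751shMLL3. ERBB2 had 4 and 6 against 10 and 5, and ERBB3 had 4 and 6 against 4 and 2. HBEGF had 5 and 4 against 5 and 1, and BTC 3 and 4 against 4 and 3. At these counts a difference of a few peaks lies within the spread of a single cell line.

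Scaled by window length, ERBB4, AREG and EREG were the densest in H3K4me1. AREG had 8.1 and 9.05 peaks per 100 kb in ZR751shLucif and 5.24 and 6.19 in ZR751shMLL3, and ERBB4 had 7.48 and 8.66 against 5.65 and 7.19. The median gene had 0.887 to 0.992 peaks per 100 kb in the 4 libraries. ERBB2 and ERBB3, the receptors with by far the highest RNA, had 1.65 to 4.12 and 0.882 to 2.65 peaks per 100 kb. Peak density thus did not follow the order of RNA levels among the members.

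**Figure D3:**
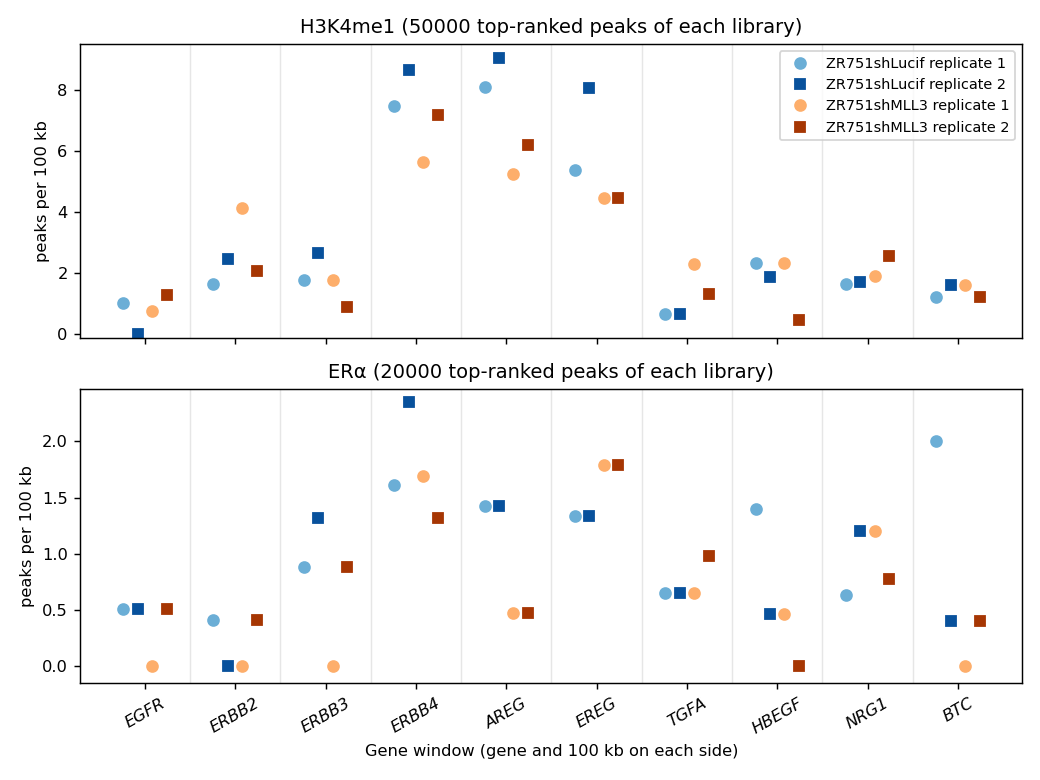
Peaks per 100 kb of gene window among the 50000 top-ranked H3K4me1 peaks (upper panel) and the 20000 top-ranked ERα peaks (lower panel); each point is 1 ChIP-seq library. For H3K4me1 the ZR751shMLL3 points lie below both ZR751shLucif points at ERBB4, AREG and EREG and above both at TGFA and NRG1.

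Peaks that repeated between the replicates of a cell line give the marked sites with most support. A repeated peak is a top-ranked peak of replicate 1 that overlaps a top-ranked peak of replicate 2 by at least 1 base. Several peaks of replicate 1 can overlap the same peak of replicate 2, so the numbers count peaks and not separate sites. Median H3K4me1 peak width was 964 and 900 bases in ZR751shLucif and 576 and 840 bases in ZR751shMLL3. Wider peaks meet this rule more easily. A site picked because it repeated in 1 cell line is favoured to rank better in that line, so such ranks do not test a difference between the lines. Near the members 88 H3K4me1 peaks repeated in ZR751shLucif and 59 in ZR751shMLL3, out of 25291 and 15490 in the genome, which is 0.348% and 0.381%. The lower number near the members thus went with a lower number everywhere. By gene, in ZR751shLucif against ZR751shMLL3, ERBB4 had 62 against 35, NRG1 12 against 13, AREG 8 against 5, EREG 6 against 3 and ERBB3 3 against 2. EGFR and HBEGF had 0 against 1, ERBB2 and TGFA 1 against 0, and BTC 1 against 1.

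A site downstream of AREG was marked in every library. Its repeated peak in ZR751shLucif had its summit at chr4:75345370, 34.5 kb past the start of AREG and outside protein-coding genes, at ranks 5970 and 12041. The same site ranked 17243 and 6564 in ZR751shMLL3, so it was within the top-ranked peaks of all 4 libraries and its ranks overlapped between the cell lines. A neighbouring site with its summit at chr4:75338275, 27.4 kb past the start, repeated in ZR751shMLL3 alone at ranks 12961 and 14638. In the controls that position ranked 124865 in replicate 1 but 15932 in replicate 2, which is close to the knockdown ranks.

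A site at the start side of EREG differed in the same way. A peak at chr4:75174943 in an intron of EPGN ranked 2796 and 33878 in ZR751shMLL3, and 173897 and 7791 in ZR751shLucif. In the other direction a peak at chr4:75280408, between EREG and AREG, ranked 13186 and 42714 in ZR751shLucif, was missing from ZR751shMLL3 replicate 1 and ranked 98348 in replicate 2. For the 56.4 kb between EREG and AREG there were 4 and 2 top-ranked peaks in ZR751shLucif and 1 and 1 in ZR751shMLL3. Every library had a summit 42.49 to 43.99 kb from the start of EREG, and ZR751shLucif replicate 1 had adjacent ones at 42.94 and 43.2 kb. No background was computed for this interval.

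**Figure D4:**
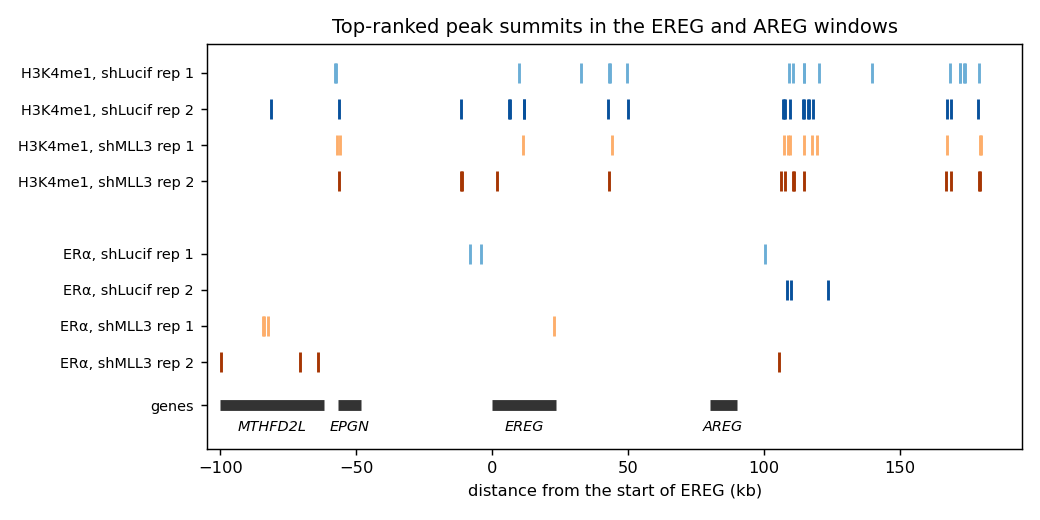
Summits of top-ranked H3K4me1 and ERα peaks in the joined EREG and AREG windows, by distance from the start of EREG (kb); each row is 1 library and black bars are genes. H3K4me1 summits cluster past the end of AREG in all 4 libraries, while between EREG and AREG there are 4 and 2 in ZR751shLucif and 1 and 1 in ZR751shMLL3. Every library has a summit there at 42.49 to 43.99 kb.

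At the receptors, the ERBB3 window had a repeated site in both cell lines. It lay 49.9 kb past the start of ERBB3, over an exon of ZC3H10 and an intron of ESYT1, at ranks 9153 and 5438 in ZR751shLucif and at 24613 and 23465 in ZR751shMLL3. Both knockdown ranks were weaker than both control ranks at this site. The ERBB2 gene itself carried a repeated peak in ZR751shLucif, in an intron 16.2 kb past its start, at ranks 40962 and 18315. It was missing from ZR751shMLL3 replicate 1 and ranked 63707 in replicate 2. The repeated EGFR peak of ZR751shMLL3, at -30.4 kb from the start of the gene (chr7:55056303), ranked 37099 and 10999 there and 23023 and 155396 in ZR751shLucif, so the groups overlapped.

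In the long genes the sites were chosen among those ranked best in replicate 1, except where stated, and lay in introns. In ERBB4 the repeated peak of ZR751shLucif chosen so, at chr2:212823949, ranked 176 and 38913, and the same position ranked 5509 and 105924 in ZR751shMLL3. In ZR751shMLL3 it was a peak at chr2:212280968, with ranks 985 and 25164 there and 38637 and 47350 in the controls. The next there by that rank, at chr2:212631030, ranked 1254 and 23544, and 33294 and 50583 in the controls. Other repeated peaks of ERBB4 ranked high in both replicates, such as chr2:212840960 with 2047 and 1372 in ZR751shLucif (25044 and 84482 in ZR751shMLL3). In ZR751shMLL3 the peak at chr2:212684238 ranked 1350 and 3453, and in ZR751shLucif it ranked 10410 in replicate 1 and was missing from replicate 2. The peak at chr2:212840960 was named after its ranks were seen. In NRG1 a peak at chr8:32582258 ranked 706 and 6850 in ZR751shMLL3 and 2087 and 8028 in ZR751shLucif, and was therefore marked in all 4 libraries. The next in ZR751shMLL3 by rank in replicate 1, at chr8:32563887, ranked 1060 and 40766. In ZR751shLucif it ranked 97055 and 11199, so its ranks overlapped between the cell lines. Another NRG1 peak, at chr8:32637840, ranked 2546 and 851 in ZR751shLucif and 10819 in ZR751shMLL3 replicate 1, and was missing from replicate 2. The peak at chr8:32566096 ranked 2801 and 14456 in ZR751shMLL3 and 69878 in ZR751shLucif replicate 1, and was missing from ZR751shLucif replicate 2. The last 2 of these sites each ranked better in the cell line in which they were picked, so they give no direction for NRG1.

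Repeated peaks of the remaining ligands were few. The TGFA peak of ZR751shLucif, past the end of the gene at chr2:70653570, ranked 17787 and 24108 there and 87023 and 125100 in ZR751shMLL3. The BTC peak of ZR751shLucif at chr4:75596209 ranked 19569 and 14112, and in ZR751shMLL3 it ranked 17453 and 67185. The HBEGF peak of ZR751shMLL3 at chr5:139792834, in an intron of ANKHD1, ranked 46044 and 10987 there and 19640 and 146722 in ZR751shLucif.

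ERα binding was compared to ask whether the receptor occupied different sites near these genes after knockdown. Among the 20000 top-ranked ERα peaks of each library 49 and 61 lay in the windows in ZR751shLucif and 47 and 42 in ZR751shMLL3. The means were 55 ± 8.49 and 44.5 ± 3.54 (SD, n = 2 each), a difference of -10.5 peaks without overlap between the groups. The exact two-sided permutation test gave p = 0.333, the smallest that the design allows, so it could not pass a threshold of 0.05. The groups overlapped when 5000 top-ranked peaks were used (14 and 18 against 16 and 11), with a window of 20 kb (40 and 49 against 42 and 33) and at the authors' false discovery rate (229 and 15 against 5 and 62). Without ZR751shLucif replicate 2 the difference was -4.5, and without ZR751shLucif replicate 1 it was -16.5.

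By gene the ERα counts were small outside ERBB4 and NRG1. ERBB4 had 22 and 32 peaks in ZR751shLucif and 23 and 18 in ZR751shMLL3, and NRG1 had 9 and 17 against 17 and 11. AREG was the only window with fewer ERα peaks in both knockdown libraries, with 3 and 3 against 1 and 1, as at 7.94% of the 19632 genes with a peak. EREG was the only one with more, with 3 and 3 against 4 and 4, as at 6.89% of genes. Counted together the AREG and EREG windows had 3 and 3 peaks in ZR751shLucif and 4 and 4 in ZR751shMLL3. TGFA had 2 and 2 against 2 and 3, ERBB3 2 and 3 against 0 and 2, and HBEGF 3 and 1 against 1 and 0. BTC had 5 and 1 against 0 and 1, EGFR 2 and 2 against 0 and 2, and ERBB2 1 and 0 against 0 and 1. No top-ranked ERα summit lay inside ERBB2, AREG or HBEGF in any of the 4 libraries. For AREG, of which hg19 carries a near-identical copy, this does not show that binding is absent.

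ERα peaks repeated far less than H3K4me1 peaks: 501 repeated in ZR751shLucif and 791 in ZR751shMLL3 over the genome. Near the members there were 0 in ZR751shLucif and 4 in ZR751shMLL3. The 4 peaks form 2 sites, since at each site a pair of adjacent replicate 1 peaks overlapped the same replicate 2 peak.

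The ERBB4 site lies in an intron, 1116 kb past the start of the gene and thus towards its far end. It ranked 39 and 76 in ZR751shMLL3, 142 in ZR751shLucif replicate 2 and 44507 in ZR751shLucif replicate 1. It was therefore among the strongest ERα sites of 3 libraries, one of which is a control, and ranked far lower in the fourth. Its false discovery rate was 0.00602 and 0.000634 in ZR751shLucif and 0.000929 and 0.00451 in ZR751shMLL3. The site thus passed the authors' limit of 0.01 in every library, both controls included. With the authors' false discovery rate of 0.01 as the limit in place of rank, the count of repeated peaks near the members in ZR751shLucif was 1, in the ERBB4 window. The sequence shown above has its closest match to the response element 35 bases before the summit, with 9 of the 10 fixed letters. H3K4me1 peaks overlapped the site at ranks 8941 and 827 in ZR751shLucif and 3145 in ZR751shMLL3 replicate 1, and none was listed in replicate 2.

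The TGFA site lies at -62.2 kb from the start of TGFA, in an intron of ADD2. It ranked 121 and 148 in ZR751shMLL3 and 245 in ZR751shLucif replicate 2, and no peak was listed there in ZR751shLucif replicate 1. The complete response element printed above lies 21 bases from the summit. ADD2, the gene that holds the site, was hardly expressed, at 0 to 0.0182 FPKM in the 4 libraries, while TGFA was at 5.07 to 7.86 FPKM. H3K4me1 at this site was weak, with ranks of 129933 and 169457 in ZR751shLucif, 36349 in ZR751shMLL3 replicate 1 and no peak in replicate 2. Whether the site acts on TGFA was not measured here.

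The complete element in the ERBB3 window was bound less firmly. Its ERα peak ranked 7875 in ZR751shLucif replicate 2 and 129486 in ZR751shMLL3 replicate 2, and was missing from the other libraries. The summit lay at -82.8 kb from the start of ERBB3, in RAB5B, which was at 36.8 to 63.8 FPKM.

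The elements were counted within 100 bases of each summit, with both strands covered because the sequence is a palindrome. A complete element lay under 0.38% to 1% of the top-ranked ERα peaks of a library, and in windows of the same length 1000 bases away under 0.005% to 0.03%. Among repeated peaks 13.6% in ZR751shLucif and 13% in ZR751shMLL3 held it, and 36.9% and 30.1% held it with at most 1 substitution. Near the members 2, 1 and 1 top-ranked peaks held a complete element in ZR751shLucif replicate 2 and ZR751shMLL3 replicates 1 and 2, and 0 of 49 did in ZR751shLucif replicate 1. A match describes the letters and does not by itself show binding through them.

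Every other leading ERα peak of a member was found in a single library among the top-ranked peaks. The best peak of AREG, 30.1 kb past its start, ranked 564 in ZR751shLucif replicate 2 and 297849 in ZR751shMLL3 replicate 2. It lies among the H3K4me1 sites downstream of AREG described above. The best peak of BTC ranked 386 in ZR751shLucif replicate 1, that of NRG1 531 in ZR751shMLL3 replicate 1, that of HBEGF 1608 in ZR751shLucif replicate 1 and that of EGFR 1574 in ZR751shMLL3 replicate 2. None of these was among the 20000 top-ranked peaks of its partner replicate, so they give no comparison between the cell lines.

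**Figure D5:**
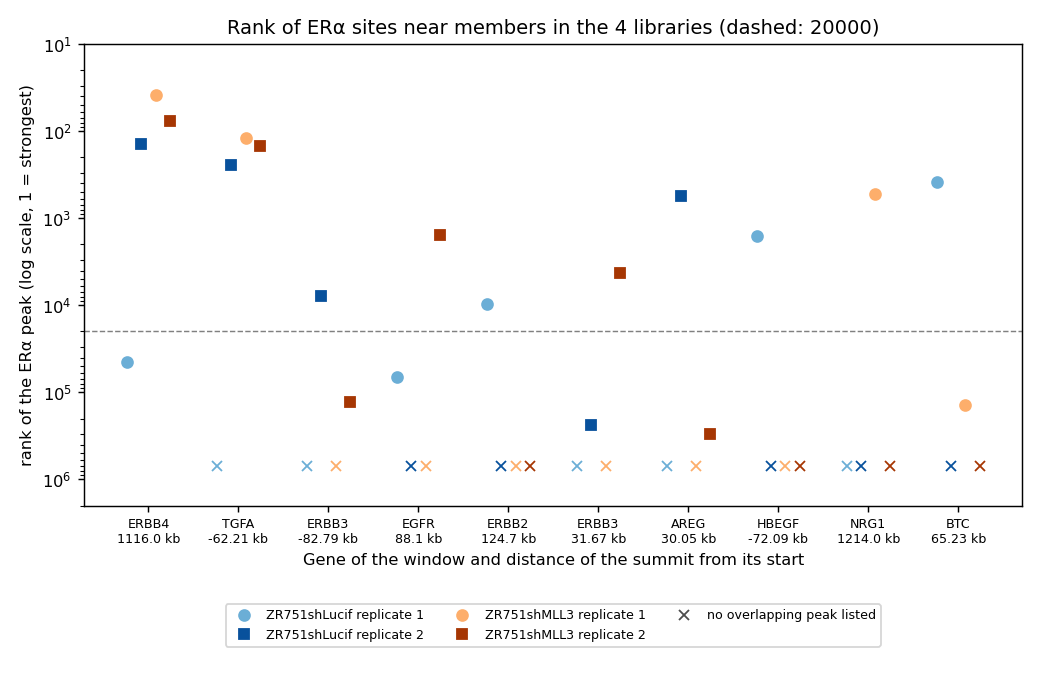
Rank (log scale, 1 is the strongest) of ERα sites near members in each of the 4 libraries; crosses mark libraries with no overlapping peak, and the x axis gives the gene and the distance of the summit from its start. The ERBB4 and TGFA sites rank between 39 and 245 in 3 libraries, while each of the other sites is among the 20000 top-ranked peaks of 1 library.

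The ERα libraries differed strongly in how many peaks passed the authors' false discovery rate of 0.01, with 98579 and 3797 in ZR751shLucif and 764 and 31912 in ZR751shMLL3. Median peak width was 204 bases in ZR751shLucif replicate 1 and 310 to 620 bases in the others. For H3K4me1 the numbers were 141158 and 192201 against 28599 and 109586. Among the H3K4me1 libraries the one with the fewest such peaks also had the fewest top-ranked peaks near the members (150) and the one with the most had the most (185). The ERα libraries did not follow that order, with 49 peaks near the members in the library with the most and 61 in the one with 3797. The part of these differences between libraries in the counts near the members was not tested. By the library names in the labels, the ZR751shLucif input and ZR751shLucif ERα replicate 2 belong to another library series than the other H3K4me1 and ERα libraries. No ZR751shMLL3 library used here belongs to that series, so no within-series comparison can be made for it. In a cell line in bulk, fewer cells that express a gene and less RNA per cell cannot be told apart either.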

How the data were processed

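RNA-seq (stranded total RNA, paired ends of 75 bases) and ChIP-seq (single ends of 50 bases) of ZR751 cells were analysed from the deposited files. The authors aligned RNA reads to hg19 with TopHat2 2.0.13 and made the deposited FPKM values with Cufflinks and Cuffnorm 2.2.1. ChIP reads were aligned with BWA 0.7.5a-r405, filtered with Picard 1.126 and called with SPP for each library against 1 input per cell line, and the deposited peak lists give a signal value and a −log10 FDR (q-value) per peak, with 156481 to 300000 relaxed peaks per list. The files used here give no read counts, so the depth behind each value could not be computed, and the approximate depths in the study's methods were not used.

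RefSeq identifiers were matched to symbols (606 rows had none). limma 3.58.1 in R 4.3.3 tested log2(FPKM + 0.5) of the 11134 genes with a mean above 1, on knockdown status, in 2 against 2 libraries, with Benjamini-Hochberg adjustment over all of them at 0.05. The surrogate variable step of the study's methods was not run, and a principal component of the residuals as covariate was an alternative in its place. Peaks were ranked by deposited signal and placed on GENCODE 44 (GRCh37). Tests over libraries were exact permutation tests. Library columns are headed with TS where the labels have TPS, and were matched by number. The limma script was tested on simulated data. Members and lists were chosen with earlier results of these data known. Named were all members, KMT2C, ESR1, the 2 changes of largest size each way per list among genes tested (other list genes are given for their role or after their values were seen), and at most 3 repeated peaks per gene, mark and cell line. SP1 peaks were not used.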

Additional observations from a re-analysis of the deposited data

How the results depend on the processing

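No member was called in any of the 10 alternative fits, but a member could be called only in a fit whose filter it passed. EREG and BTC were tested only with no filter, and NRG1 only there and with the pseudocount of 1. The number of genes called in all was 1 in the main fit, 0 with no filter, 473 with a principal component of the residuals added as covariate, 33 with the replicate block and 4 to 1333 with a library left out, the most without ZR751shLucif replicate 2. With no filter 1861 genes had an unadjusted p under 0.05. In the replicate block the members tested stayed uncalled (0). Same-numbered libraries did not deviate together (correlation of deviations across genes 0.0374), so they share only a number. The block gave ERBB2 an adjusted p of 0.837 and EGFR one of 0.822. Of 92 alternative values of the members' log2 fold changes, 10 changed sign. For the genes tested these were ERBB2 (-0.008 without ZR751shLucif replicate 2), ERBB3 (0.0227 with each library centred on its median, 0.1745 without ZR751shMLL3 replicate 1) and TGFA (-0.0677 without ZR751shMLL3 replicate 2). With a library left out, values ran from -0.008 to 0.925 for ERBB2, from -0.2883 to 0.1745 for ERBB3 and from -0.0677 to 0.4423 for TGFA. Among the genes below the filter, AREG, HBEGF and BTC changed sign in 2 values each, and with a library left out they ran from -1.17 to 0.79 for AREG, from -0.17 to 0.77 for HBEGF and from -0.46 to 0.89 for BTC. Removing the trend with GC content lowered ERBB2 to 0.22. The cause of these shifts was not tested.

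The difference in H3K4me1 peaks near the members was 6 without the ERBB4 window, an alternative chosen after seeing the data, and ran from -26 to -7 with a library left out. It was -20 among the 20000 top-ranked peaks (84 and 97 against 71 and 70) and -314 at the authors' FDR of 0.01 (435 and 628 against 97 and 338), without overlap in either. At that FDR the whole lists held 141158 and 192201 peaks against 28599 and 109586, so the -314 went with shorter lists. Repeated H3K4me1 peaks numbered 36 and 17 (ZR751shLucif and ZR751shMLL3) among the 20000 top-ranked, 349 and 62 at the authors' FDR of 0.01, and 72 and 36 with an overlap of at least 0.5 of both peaks, beside 88 and 59 as reported. As shares of all repeated peaks these were 0.439% and 0.35%, 0.343% and 0.405%, and 0.341% and 0.356%. Repeated ERα peaks numbered 1 in ZR751shLucif at that FDR, and 2 in ZR751shMLL3 with a window of 20 kb and with the stricter overlap. The ERα difference was below 0 in all 8 alternatives but its size and lack of overlap depended on them. It was -16.5 without ZR751shLucif replicate 1 and -4.5 without ZR751shLucif replicate 2. The groups overlapped among the 5000 top-ranked peaks (-2.5), at the authors' FDR (-88.5, from 229 and 15 against 5 and 62) and with the window of 20 kb (-7). With 2 libraries per group, small differences cannot be told from the spread between libraries.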
